A study of Caenorhabditis elegans with 14 samples.

Results

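The 7 genes described here encode proteins of the muscle sarcomere of Caenorhabditis elegans: the myosin heavy chains unc-54, myo-3, myo-1 and myo-2, the paramyosin gene unc-15, the actin gene act-4 and the thin-filament gene unc-87. They were chosen by name as genes of the body-wall and pharynx muscle, and they are 7 of the 20535 protein-coding genes in the deposited tables. Their reads were summed over the transcripts of each gene, with sense reads (the strand of the mRNA) and antisense reads (the complement) kept apart.

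Muscle of the worm contracts by the sliding of thick filaments of myosin past thin filaments of actin. In the body wall the thick filaments hold the myosin heavy chains UNC-54 and MYO-3 around a core of paramyosin, and the pharynx, the pump that takes up food, uses MYO-1 and MYO-2 in their place. Small RNAs that lie antisense to a coding gene include those made by RNA-dependent RNA polymerases on an mRNA template, whereas a sense read of small RNA size carries the sequence of the mRNA itself.

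The study sequenced RNA of 17 to 30 nucleotides from late young adult worms kept at 20 °C on OP50 bacteria, and its title concerns the PICS complex, which acts in the maturation of piRNAs, the small RNAs bound by the Piwi protein PRG-1. In 6 untreated libraries the RNA was cloned as it was, 1 library each of the control strain n2, tofu-6(ust94), pics-1(tm2417), erh-2(ust101), prg-1(n4503) and tost-1(ust103). In 8 TDP2 libraries the RNA was first dephosphorylated with CIAP and then decapped with Tobacco Decapping plus 2, so that capped RNAs could be ligated: 1 library each of n2, pics-1(tm2417), erh-2(ust101) and prg-1(n4503), and 4 of tofu-6, from the alleles it20, ust94, ust95 and yt2. A tost-1 TDP2 library was not analysed here. TOFU-6, PICS-1, ERH-2 and TOST-1 are the proteins of the complex whose genes were mutated one at a time. All of these are whole-animal preparations of mutants that carry the change in every tissue, so that fewer muscle cells and less RNA per muscle cell cannot be told apart. The 4 tofu-6 libraries are 4 different strains, every other group is 1 library, and nothing in the labels says that the libraries came from separate cultures. P-values therefore measure only the spread between these libraries.

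The libraries held 6918136 to 13469619 reads assigned to a feature, and levels are given as RPM, reads scaled to 1000000 assigned reads in the library. A library with 0 reads at a gene allows a level of up to 0.223 to 0.434 RPM, the level of 3 reads. Sense reads of protein-coding genes took 6.77% to 13.7% of the untreated and 8.46% to 16.6% of the TDP2 libraries, and antisense reads took 0.336% to 0.751% and 4.93% to 28.3%. The 7 muscle genes together gave 2207 to 9568 sense reads per library, which was 0.290% (tost-1, untreated) to 0.855% (prg-1, untreated) of all protein-coding sense reads. Every member had sense reads in all 14 libraries.

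In the WBcel235 annotation, whose build the deposited files do not name, 4 of the 7 genes lie on chromosome I and all 4 are on the minus strand. These are unc-54 at I:14855901-14863482, myo-1 at I:7258946-7267057, unc-15 at I:7376604-7383197 and unc-87 at I:6761221-6767797. The others are myo-3 on the minus strand at V:12226817-12234343, myo-2 on the plus strand at X:12468061-12475348 and act-4 on the plus strand at X:4960621-4964413. The 4 myosin genes have 6104 to 6457 bases of exon, unc-15 has 3424, unc-87 has 2362 and act-4 has 1601. The deposited tables count on transcripts of the gene, so the reads are exonic, and the tables list 8 transcripts for act-4 and unc-15, 6 for unc-87, 3 for unc-54, 2 for myo-1 and 1 for myo-2 and myo-3. How reads that match several transcripts of 1 gene were counted is not given in the sources used here, and the act-4 counts may hold reads of act-1, act-2 and act-3, which are near-identical copies.

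Per length of exon, the sense reads of the 7 genes kept 1 order in nearly every library. The median level per kilobase of exon was 70.8 RPM for act-4 in the 6 untreated libraries, 40.7 for unc-54, 21.04 for unc-15, 10.7 for unc-87, 5.79 for myo-3, 3.61 for myo-1 and 3.18 for myo-2. In the 8 TDP2 libraries the medians per kilobase were 113, 41.3, 23.3, 9.86, 3.94, 2.40 and 1.71 RPM in the same order. The order from act-4 through unc-54, unc-15 and unc-87 to myo-3 held in 14 of 14 libraries, with both pharynx myosins below myo-3. Only the last pair, the pharynx myosins, changed places: myo-1 was above myo-2 in 12 libraries and below it in the untreated n2 and tost-1 libraries. The ratio of myo-1 to myo-2 ran from 0.824 in untreated n2 to 1.72 in tofu-6(ust94) TDP2, and that of myo-3 to myo-1 from 1.09 in tofu-6(ust94) TDP2 to 2.16 in prg-1 TDP2. UNC-54, the major body-wall myosin heavy chain, had 6.17 to 22.4 times the level per kilobase of MYO-3, the minor one that lies in the middle of the thick filament.

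**Figure D1:**
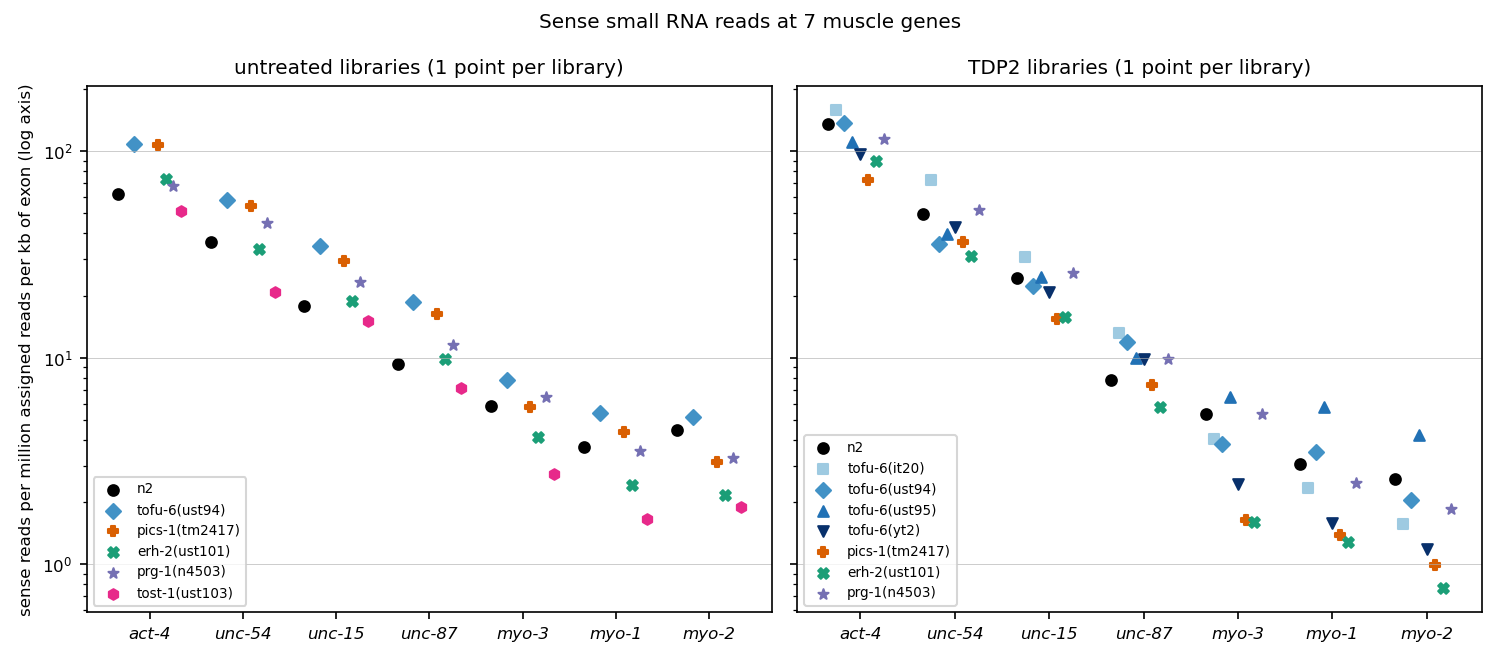
Sense RPM per kilobase of exon (log axis) at each muscle gene, 1 point per library, with the 6 untreated libraries on the left and the 8 TDP2 libraries on the right. The genes step down from act-4 to the pharynx myosins in both panels, and the myosins myo-3, myo-1 and myo-2 are spread more widely after TDP2.

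The body-wall myosin unc-54 had the most sense reads of the 7 genes in every library. Its untreated level was 225 RPM in n2, 208 in erh-2, 129 in tost-1, 280 in prg-1, 362 in tofu-6(ust94) and 336 in pics-1. Its TDP2 level was 307 RPM in n2, 322 in prg-1, 227 in pics-1, 193 in erh-2, and 449, 221, 247 and 265 in the 4 tofu-6 alleles (it20 first, then ust94, ust95 and yt2, an order kept below). The tost-1 library was the lowest of the untreated ones, and the tofu-6 alleles (296 ± 104.1 RPM, SD, n = 4) lay on both sides of the control.

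The second body-wall myosin, myo-3, was at 35.5 RPM in untreated n2, 25.3 in erh-2, 16.6 in tost-1, 39.3 in prg-1, 47.5 in tofu-6(ust94) and 35.2 in pics-1. In TDP2 libraries it was at 32.7 RPM in n2, 32.5 in prg-1, 9.96 in pics-1, 9.73 in erh-2, and 24.7, 23.4, 39.4 and 15 in the 4 tofu-6 alleles. After TDP2 the pics-1, erh-2 and yt2 libraries were the low ones, and ust95, n2 and prg-1 were the high ones.

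The pharynx myosin myo-1 was at 23.8 RPM in untreated n2, 15.5 in erh-2, 10.7 in tost-1, 22.9 in prg-1, 34.7 in tofu-6(ust94) and 28.1 in pics-1. Its TDP2 level was 19.7 RPM in n2, 15.9 in prg-1, 8.96 in pics-1, 8.24 in erh-2, and 15.1, 22.6, 37.5 and 10.2 in the 4 tofu-6 alleles. The other pharynx myosin, myo-2, stood at 28.3 RPM in untreated n2, 13.8 in erh-2, 12 in tost-1, 20.6 in prg-1, 32.5 in tofu-6(ust94) and 19.7 in pics-1. The 2 genes thus shared their low libraries, tost-1 and erh-2, among the untreated ones. With TDP2, myo-2 was at 16.4 RPM in n2, 11.8 in prg-1, 6.31 in pics-1, 4.83 in erh-2, and 9.90, 12.9, 26.8 and 7.48 in the 4 tofu-6 alleles. The ust95 library was the only TDP2 library above the control for both pharynx myosins.

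Paramyosin, unc-15, forms the core of the thick filament. Its untreated level was 60.7 RPM in n2, 64.8 in erh-2, 51.6 in tost-1, 79.3 in prg-1, 119.1 in tofu-6(ust94) and 100.4 in pics-1. Its TDP2 level was 83.8 RPM in n2, 88.5 in prg-1, 52.5 in pics-1, 53.7 in erh-2, and 105.3, 76.1, 84.6 and 71.6 in the 4 tofu-6 alleles. The untreated tofu-6(ust94) and pics-1 libraries were the high ones, and with TDP2 the pics-1 library was among the low ones.

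On the thin filament, act-4, an actin of body-wall muscle, was at 99.1 RPM in untreated n2, 118 in erh-2, 82.4 in tost-1, 109 in prg-1, 173 in tofu-6(ust94) and 172 in pics-1. Its TDP2 level was 217 RPM in n2, 184 in prg-1, 116 in pics-1, 143 in erh-2, and 254, 219, 178 and 155 in the 4 tofu-6 alleles. It was the only member whose TDP2 level passed the untreated level in 4 of 5 strains. UNC-87 is a calponin-like protein that binds actin filaments. Its gene was at 21.9 RPM in untreated n2, 23.3 in erh-2, 16.8 in tost-1, 27.3 in prg-1, 43.8 in tofu-6(ust94) and 38.7 in pics-1. With TDP2 it was at 18.5 RPM in n2, 23.3 in prg-1, 17.4 in pics-1, 13.6 in erh-2, and 31.2, 28.2, 23.6 and 23.3 in the 4 tofu-6 alleles. All 4 tofu-6 alleles were above the control for unc-87.

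Sense reads of the muscle genes did not pass the test in any of the 4 mutants compared with control in the TDP2 libraries. The test was edgeR's quasi-likelihood test fitted to 22549 features in all 8 TDP2 libraries, with p-values adjusted over all of them and a threshold of 0.05. Its spread came from the 4 tofu-6 alleles alone, and the single libraries of the other mutants and of the control borrow it. In tofu-6, 0 of 7 members were called, against 0.0887% of all features called higher and 0.173% called lower. Their log2 changes ran from −0.35 (myo-3) to 0.54 (unc-87), with a median of −0.06 against 0.81 for all protein-coding sense features, and the lowest adjusted p was 0.840. In pics-1, 0 of 7 were called (0.0177% of features higher, 0.0355% lower), although all 7 estimates were below 0, from −2.07 ± 1.22 (SE) for myo-3 to −0.44 for unc-87, with a median of −1.26 against −0.04. In erh-2, 0 of 7 were called (0.0577% higher, 0.111% lower), and the estimates ran from −1.33 (myo-2) to −0.01 (unc-87), with a median of −0.24 against 1.06. In prg-1, 0 of 7 were called (0.0887% higher, 5.54% lower), with estimates from −0.04 (myo-2) to 0.77 (unc-87) and a median of 0.43 against 0.17. Scaled to microRNA reads, 0 of the 7 estimates in erh-2 and 2 in pics-1 were below 0. At an unadjusted p under 0.05 the count was also 0 in each mutant, and DESeq2 called 0 as well. In data simulated from these libraries the same fit found 29 of 100 features changed by 3 on the log2 scale in tofu-6 and 95 of 100 changed by 6, so smaller differences of single genes were mostly not detectable here.

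The libraries themselves differed from the control by more than counting error, as ratios of TMM-scaled counts with exact 95% counting intervals show. The 7 genes summed were at 1.35 times the control (1.31 to 1.39) in tofu-6(it20), at 1.08 (1.04 to 1.12) in ust94, at 0.817 (0.789 to 0.847) in ust95 and at 0.629 (0.605 to 0.653) in yt2. The tofu-6 alleles thus stood on both sides of the control, but scaled to protein-coding sense reads all 4 were below it and scaled to microRNA reads all 4 were above it. The prg-1 sum was at 1.32 (1.27 to 1.37), the erh-2 sum at 0.829 (0.799 to 0.859) and the pics-1 sum at 0.492 (0.472 to 0.513). Scaled to microRNA reads these 3 sums were at 5.37, 6.32 and 1.40, so that erh-2 and pics-1 went from below to above the control, and scaled to protein-coding sense reads at 1.22, 0.453 and 0.564. A ratio 2-fold or more below control was seen for 5 members in pics-1 (22.9% of all features were that far down), 3 in yt2 (18.3%), 2 in erh-2 (36%) and 0 in it20 (28.3%), ust94 (41.3%), ust95 (19.9%) and prg-1 (28.3%). In yt2 and erh-2 these were myosins: myo-1 (0.413), myo-2 (0.363) and myo-3 (0.366) in yt2, and myo-2 (0.397) and myo-3 (0.402) in erh-2. In pics-1 they were myo-3 (0.238), myo-2 (0.30), myo-1 (0.356), act-4 (0.418) and unc-15 (0.489), and unc-54 was at 0.576. The gene with the highest ratio was unc-87 in all mutant libraries except ust95, where it was myo-1 at 1.70 (1.42 to 2.05). These mutants share 1 control library, whose own deviation enters every ratio.

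Markers of some other tissues also stood apart from control in these TDP2 libraries. The summed RPM of 21 germline genes was 1.63 times the control in pics-1 and 2.17 times in erh-2, with 20 and 21 of 21 genes higher. Under the TMM scaling their median log2 changes were 0.43 and 1.59, against −0.04 and 1.06 for all protein-coding sense features. The sum of 20 epidermal genes was 0.468 and 0.460 times the control, with 15 of 16 and 13 of 16 countable genes lower. The sum of 18 sperm genes was 0.0735 times the control in pics-1 and 0.0289 times in erh-2, with 9 of 9 countable genes lower in both. The 20 intestine genes summed were at 1.43 and 1.41 times the control, with 9 and 11 of 19 countable genes higher. The 21 neuron genes were at 0.749 and 1.07, with 3 and 6 of 13 higher. Over the 8 TDP2 libraries the sperm sum ran from 1.48 to 109 RPM with up to 9 of its genes at 0 reads, the epidermal sum from 98.7 to 328 RPM and the germline sum from 414 to 1191 RPM. A list of 34 genes taken as further sarcomere genes, which also holds lev-8 and mlc-4, was at 0.714 times the control in pics-1 and 0.844 times in erh-2 when summed as RPM. In it 24 of 32 and 24 of 33 countable genes were lower. On the same RPM scale the 7 members summed were at 0.630 in pics-1 and 0.613 in erh-2. In the same order, genes of muscle attachment were at 0.591 and 0.623, with 18 of 19 and 19 of 20 countable genes lower. Those of muscle excitation were at 1.01 and 1.10, with 11 of 12 and 6 of 15 lower. Regulators of muscle genes were at 0.259 and 0.492 on 26 and 84 reads, with 4 of 4 and 4 of 5 lower. In pics-1, 7 of the 10 regulators had 0 reads. The part that the differences in other tissues had in the muscle values was not tested.

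In the untreated libraries each mutant is 1 library against 1 control library, so the ratios carry counting error only and no test. The tost-1 library was the lowest for all 7 genes: their summed RPM was 0.645 (0.611 to 0.681) times the control, and the counting interval was below 1 for 7 of 7. Its myosins were the lowest, with myo-2 at 0.424 (0.324 to 0.551), myo-1 at 0.450 (0.338 to 0.595) and myo-3 at 0.468 (0.372 to 0.586), so 3 of 7 members were 2-fold or more lower against 6.85% of all features. The remaining members were at 0.572 (unc-54) to 0.851 (unc-15), while the median protein-coding sense feature was at 1.41. In erh-2 the sum was at 0.947 (0.905 to 0.992), at 0.418 when scaled to microRNA reads and at 0.620 when scaled to protein-coding sense reads, and 1 member, myo-2 at 0.486 (0.383 to 0.614), was 2-fold or more lower, against 9.71% of features. The untreated tofu-6(ust94) and pics-1 libraries went the other way, with sums of 1.64 (1.58 to 1.71) and 1.47 (1.42 to 1.54), close to or below their protein-coding sense medians of 1.70 and 1.74; scaled to protein-coding sense reads the sums were at 0.962 and 0.860, and scaled to microRNA reads at 0.488 and 0.571. In prg-1 the sum was at 1.17 (1.12 to 1.22) against a median of 0.822, and at 0.776 when scaled to microRNA reads. No member was 2-fold or more higher in any untreated mutant, against 12.7% of features in prg-1, 17% in tost-1, 25% in erh-2, 36.7% in pics-1 and 37.8% in tofu-6(ust94). Lower by 2-fold or more were 0 members in tofu-6(ust94) (5.16% of features), pics-1 (8.69%) and prg-1 (15.1%). The pharynx myosin myo-2 had the lowest ratio of the 7 in each of the 5 mutants, which share the control library.

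**Figure D2:**
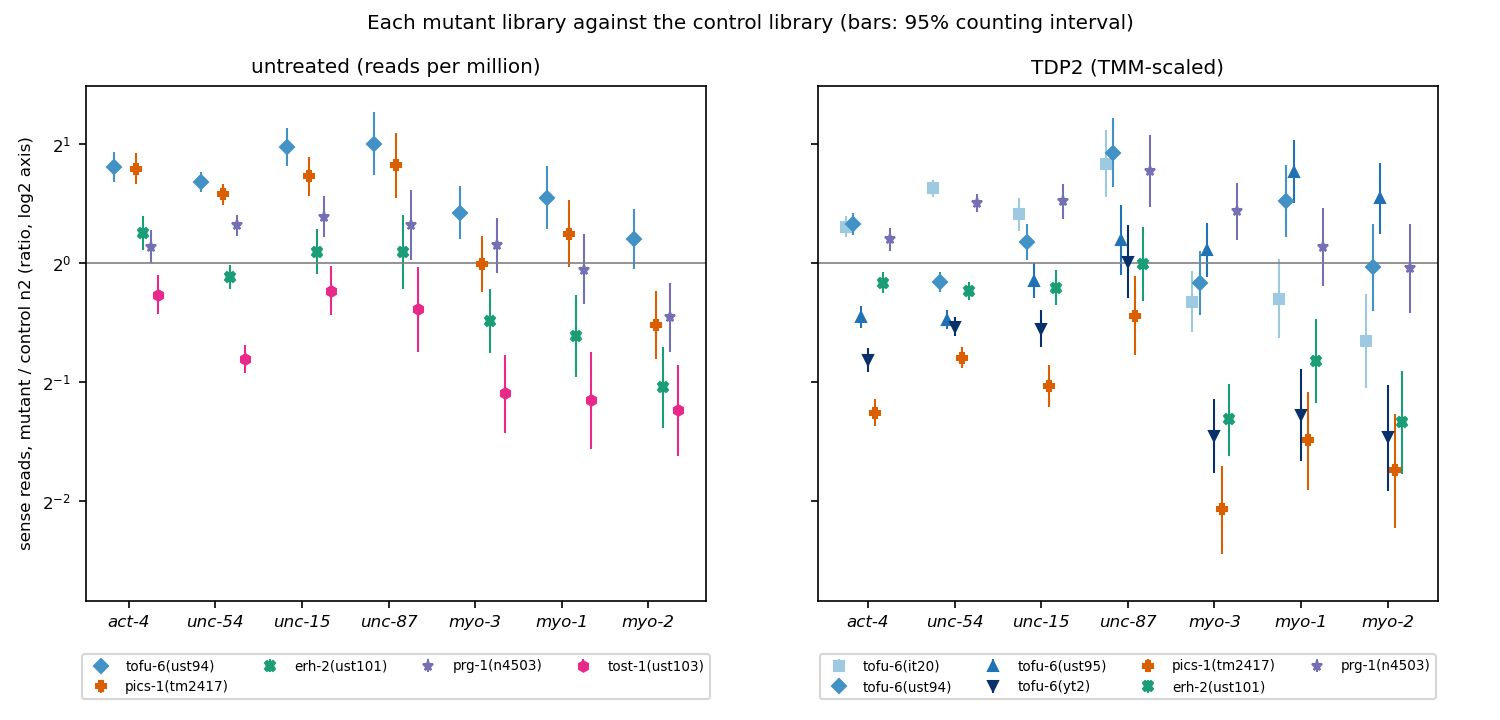
Ratio of sense reads in each mutant library to the control library of the same treatment (log2 axis) for the 7 genes, as RPM for untreated libraries on the left and TMM-scaled counts for TDP2 libraries on the right, with bars for the 95% counting interval. The tost-1 points lie below 1 for all 7 genes, and the pics-1 points are above 1 for 5 of 7 genes without treatment and below 1 for 7 of 7 with TDP2.

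In the untreated tost-1 library, too, other markers stood apart from control. The summed germline genes were at 1.86 times the control with 21 of 21 higher, the intestine genes at 1.83 with 12 of 17 higher, the epidermal genes at 0.496 with 9 of 11 lower, and the sperm genes at 0.148 on 11 reads, with 13 of 18 at 0. Among muscle lists, the list of further sarcomere genes was at 0.847 with 24 of 30 lower, and the attachment genes at 0.719 with 13 of 16 lower. Excitation genes were at 0.895 with 8 of 9 lower, and regulators at 0.265 on 21 reads with 2 of 2 lower. The 21 neuron genes were at 0.957 with 6 of 9 lower, and the median protein-coding sense feature was at 1.41. Over the 6 untreated libraries these sums ran from 426 to 1133 RPM for germline, 6038 to 16577 for intestine, 44.4 to 98.8 for epidermis and 0.957 to 32.2 for sperm. Their part in the muscle values was not tested.

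Sense reads of the myosins myo-1, myo-2 and myo-3 and of unc-87 fell with TDP2 in the 5 strains that had both kinds of library, under the TMM scaling. In an edgeR fit of 10 libraries with strain as a block, these were 4 of 7 members, with log2 changes of −1.67 ± 0.29 for myo-2 (SE; adjusted p = 0.000650), −1.38 ± 0.33 for myo-3 (0.00463), −1.25 ± 0.30 for myo-1 (0.00466) and −1.07 ± 0.28 for unc-87 (0.00783). Of all features tested 12.3% fell and 43% rose, and of protein-coding sense features 14.4% fell and 10.2% rose. Each of these 4 genes was lower in RPM in 5 of 5 strains. The others did not pass: unc-15 was at −0.71 ± 0.32 (0.0832), unc-54 at −0.61 ± 0.34 (0.154) and act-4 at −0.07 ± 0.34 (0.881). DESeq2 called 7 of 7 lower, act-4 at −0.59 (adjusted p = 0.0450) among them, and unc-15 and unc-54 also passed with a filter of 30 reads in a library (−1.15 and −1.05) and without the prg-1 pair (−1.29 and −1.17). Without the strain block myo-3 did not pass (−1.15, 0.0616), nor did unc-87 when the transcript with most reads stood for the gene (−0.79, 0.114). The median over the 7 was −1.07, against −0.32 for all protein-coding sense features. The ratio of RPM with TDP2 to RPM without it was 0.581 for myo-2 in n2, 0.571 in prg-1, 0.396 in tofu-6(ust94), 0.320 in pics-1 and 0.351 in erh-2. For act-4 it was 2.19 in n2, 1.69 in prg-1, 1.26 in tofu-6(ust94), 0.679 in pics-1 and 1.21 in erh-2. The pics-1 pair had the lowest sum of the 7 genes, at 0.601 times its untreated level, against 1.41 in n2, 1.17 in prg-1, 0.910 in erh-2 and 0.742 in tofu-6(ust94).

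The level of these estimates depended on what the libraries were scaled to, and which gene was lowest and which highest did not. Scaled to microRNA reads, which made up 3.93% to 13.51% of untreated and 0.81% to 8.35% of TDP2 libraries, the 7 estimates moved up by 2.22, all 7 were above 0 and only act-4 passed (2.15, adjusted p = 0.0245). Scaled to reads outside structural RNA they moved up by 0.78 and 0 of 7 passed. The scaling to protein-coding sense reads moved them up by 0.25, and the size factors of DESeq2 in edgeR by 0.11; under both of these 4 of 7 passed. DESeq2 itself moved them down by 0.52. In each of these settings and in DESeq2, myo-2 was the lowest and act-4 the highest, 1.58 to 1.61 apart.

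**Figure D3:**
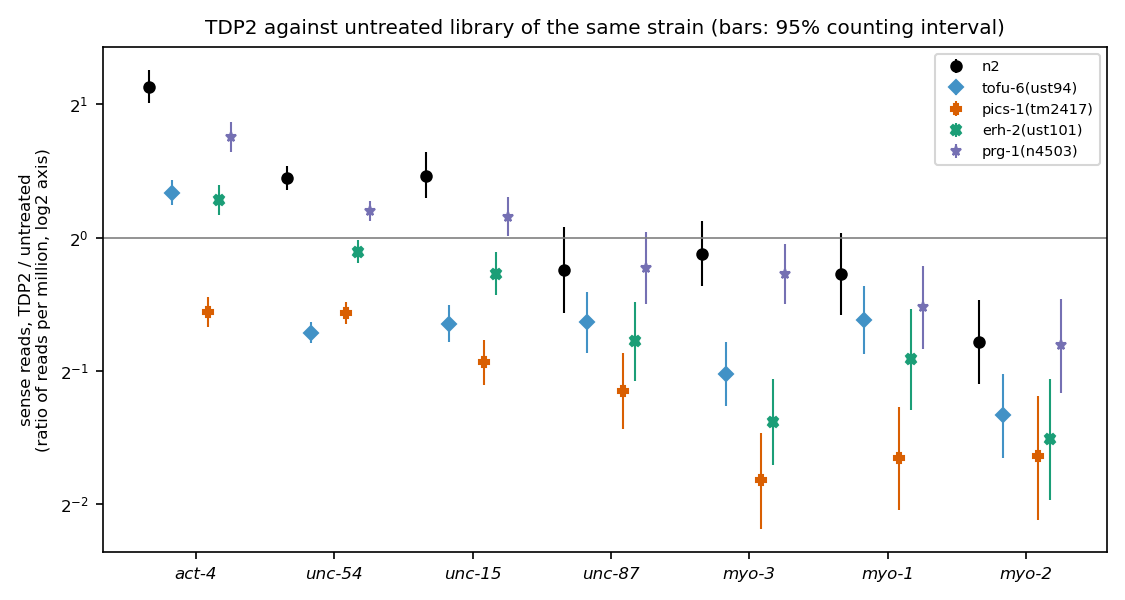
Ratio of sense RPM in the TDP2 library to the untreated library of the same strain (log2 axis) for each gene, with 95% counting intervals. The ratios for myo-2, myo-1, myo-3 and unc-87 are below 1 in 5 of 5 strains, and those for act-4 are above 1 in 4 of 5.

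The shares that each gene took of the 7 genes' sense reads need no scaling between libraries. The share of act-4 was 21.8% ± 2.58 without treatment and 30.98% ± 4.17 with TDP2 (mean ± SD, n = 5 strains), a difference of 9.20 points that was above 0 in 5 of 5 strains and ran from 3.05 to 15 points. The act-4 share ran from 18.8% to 25.8% over the 6 untreated libraries and from 26.6% to 36.3% over the 8 TDP2 libraries. How many other genes separate the 2 treatments in this way was not counted. Shares of 1 total move against each other, so a higher act-4 share goes with lower shares of other members. The pharynx myosins myo-1 and myo-2 together went from 7.82% ± 1.71 to 4.34% ± 1.18 and were lower in 5 of 5 strains. Among TDP2 libraries their share ran from 2.81% to 10.1%, so the groups overlapped. The share of unc-54 was 45.8% ± 1.65 and 45.04% ± 5.54, higher in 2 strains and lower in 3. An exact sign-flip permutation test (two-sided, n = 5 pairs) gave p = 0.0625 for act-4 and for the pharynx myosins, which is the smallest p that 5 pairs allow, and 0.0804 after adjustment over the 9 shares compared.

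Within unc-54 the sense reads lay differently on its 3 listed transcripts after TDP2. The transcript F11C3.3.3 held 30.9% to 34.1% of the unc-54 sense reads in the 6 untreated libraries and 46.8% (tofu-6(ust94)) to 64.9% (erh-2) in the 8 TDP2 libraries. How many transcripts of other genes separate in this way was not counted. Over the 5 strain pairs the F11C3.3.3 share went from 32.8% ± 1.40 to 56.8% ± 6.98 (SD), higher in 5 of 5 by 12.7 to 33.2 points. The exact permutation p was 0.0625, again the smallest possible with n = 5. Because the transcript was chosen after these values were seen, that p adds no support. In a fit of single transcripts, F11C3.3.1 fell (log2 change −1.35, adjusted p = 0.00331), as did F11C3.3.2 (−1.49, 0.00254), while F11C3.3.3 was at 0.03 (0.947); scaled to microRNA reads the first 2 were at 1.06 and 0.91, and scaled to reads outside structural RNA they did not pass (−0.43 and −0.56). Of all transcripts in that fit 20.2% fell and 41.4% rose. The same scale-free comparison of act-4 gave 24.0% ± 1.94 without treatment and 15.1% ± 2.33 with TDP2 for its transcripts M03F4.2b.6 and M03F4.2c together, lower in 5 of 5 strains. For the a transcripts of unc-15, F07A5.7a.1 to a.4, it gave 63.3% ± 2.03 and 69.8% ± 3.73, higher in 5 of 5. These transcript sets were chosen after their values were seen. The annotation used here holds 1 unc-54 transcript, so the bases that set F11C3.3.3 apart from the others are not known.

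**Figure D4:**
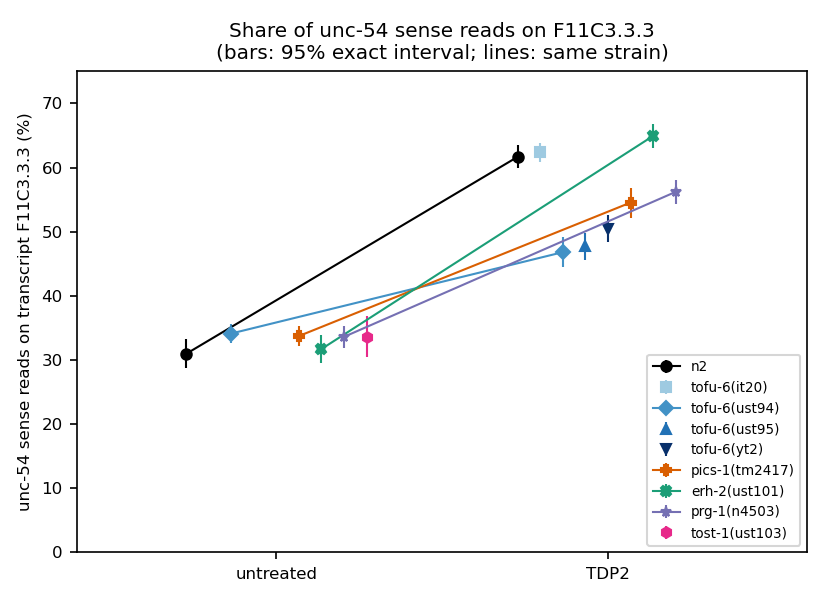
Share of unc-54 sense reads counted on the transcript F11C3.3.3 (%) in each library, with exact 95% intervals and lines that join the untreated and TDP2 library of a strain. The 6 untreated libraries lie between 30.9% and 34.1%, and the 8 TDP2 libraries between 46.8% and 64.9%.

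Antisense reads at the muscle genes were few. They made up 0.0572% to 0.451% of the reads at the 7 genes in untreated libraries and 0.238% to 1.53% in 7 of the 8 TDP2 libraries, against 3.12% to 6.00% and 22.9% to 70.5% for all protein-coding genes. The exception was tofu-6(yt2), at 42.7% (exact 95% interval 41.6% to 43.9%), and nearly all of its antisense reads were at unc-87. Over all 14 libraries the 3 myosins myo-1, myo-2 and myo-3 had 22, 13 and 8 antisense reads and were not tested.

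The actin act-4 had 0 antisense reads in the untreated n2 and erh-2 libraries, 1 each in pics-1 and tofu-6(ust94) and 3 in prg-1. With TDP2 it had 21 in n2, 14 in erh-2, 10 in pics-1, 4 in tofu-6(ust94) and 9 in prg-1. The TDP2 libraries were all above their untreated partners, and act-4 antisense rose by 2.93 ± 0.81 on the log2 scale (adjusted p = 0.0101). Antisense unc-54 had 2 reads in the 5 untreated libraries together and 11, 1, 9, 19 and 0 in the TDP2 libraries of n2, tofu-6(ust94), pics-1, erh-2 and prg-1, a rise of 3.22 ± 1.07 (0.0261). The unc-54 call was lost in DESeq2 (2.37, 0.171), without the n2 pair (2.83, 0.0785) and without the pics-1 pair (2.68, 0.110), while that of act-4 held in the 12 alternatives run. As plain sums over the 5 strains the ratio of antisense RPM with TDP2 to that without was 20.1 (counting interval 5.21 to 172) for unc-54 and 11.7 (4.72 to 37.2) for act-4. The third member with enough antisense reads for that fit, unc-87, was at −0.13 (0.905). Of all protein-coding antisense features 90.6% rose with TDP2 and 0.59% fell, with a median of 3.88, so these 2 rises were like those of most antisense features. In prg-1 with TDP2, unc-54 had 0 antisense reads against 11 in control, which is at least 3.42-fold lower by the level of 3 reads, but did not pass the test (adjusted p = 0.338), where 12.1% of protein-coding antisense features fell and 0.0809% rose.

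Antisense reads at unc-87 were found in number in 1 library. They numbered 1 to 8 in each of the 6 untreated libraries, and in TDP2 libraries 0 in prg-1, 2 in n2, 3 in erh-2, 29 in pics-1, 8, 5 and 8 in tofu-6 it20, ust94 and ust95, and 3311 in tofu-6(yt2). At 406 RPM, unc-87 ranked 113 of 20535 protein-coding genes by antisense reads in yt2. The yt2 level was 1509 times the control (417 to 12463), while its unc-87 sense reads numbered 190, inside the 116 to 516 of the other libraries. The 3311 reads were spread nearly evenly over the 6 transcripts, with 536 to 576 on each (16.2% to 17.4%). As it is not known how reads in sequence shared by transcripts were counted, these numbers do not tell the transcripts apart. As the 1 member feature called in tofu-6, antisense unc-87 was higher by 8.48 ± 1.68 (adjusted p = 0.00140), where 0.162% of protein-coding antisense features were called higher and 0.127% lower. That call rested on yt2: without it the estimate was 1.84 (0.572), and each test in this fit used a spread pooled over features, so that the disagreement of the alleles at unc-87 itself did not count. The pics-1 library was 13.3 times the control (3.36 to 115) on 29 reads against 2, with an adjusted p of 0.685. In pics-1, erh-2 and prg-1, 0 of 4 antisense members were called by edgeR or DESeq2, where 0.0116% of protein-coding antisense features were called in each direction in pics-1, and 0% higher and 0.0231% lower in erh-2. At an unadjusted p under 0.05 there was 1 such member in pics-1 (unc-87), 1 in prg-1 (unc-54) and 0 in erh-2.

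**Figure D5:**
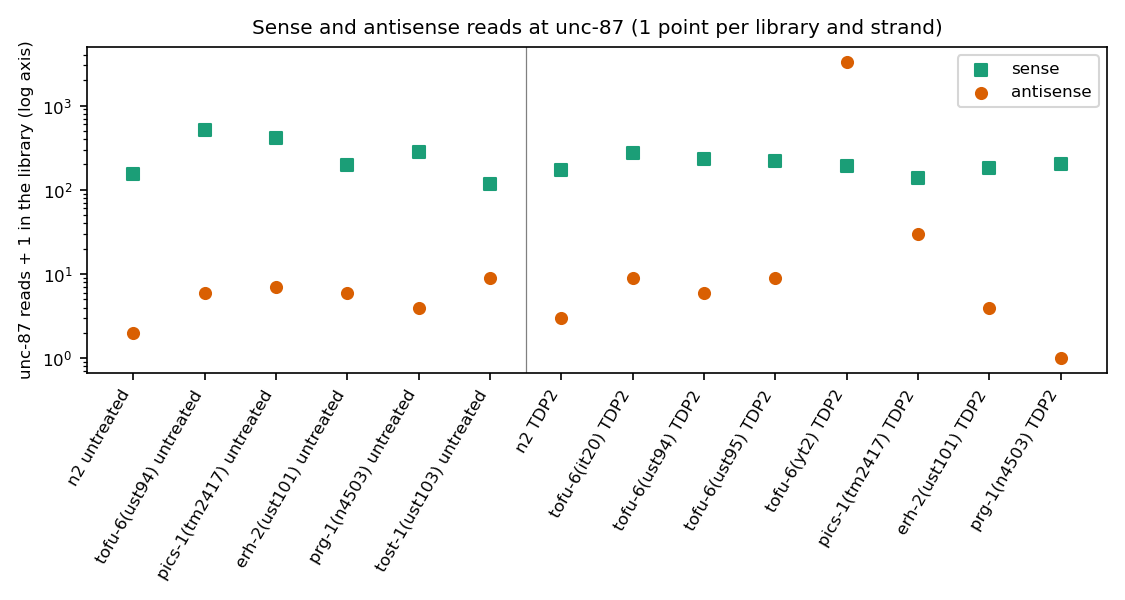
Reads at unc-87 plus 1 (log axis) in each library, sense in squares and antisense in circles, with untreated libraries left of the grey line and TDP2 libraries right of it. Antisense reads exceed sense reads in tofu-6(yt2), with 3311 against 190, and stay below them in the other 13 libraries.

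The unc-87 locus overlaps F08B6.1, a coding gene on the opposite strand, by 215 bases, so reads antisense to unc-87 there could come from either gene. In the annotation used here F08B6.1 ends at I:6761435, and the unc-87 transcript F08B6.4b, at I:6761445-6767797, lies outside the overlap. That transcript was credited with 537 of the 3311 antisense reads in yt2. In yt2, F08B6.1 had 5 sense reads, and over all libraries it had at most 9. Among 2934 protein-coding genes compared, unc-87 had the largest ratio of antisense level in yt2 to the median of the other tofu-6 alleles with TDP2. That ratio was 218 after 1 RPM was added to both. The genes that followed, named after their values were seen, were T05G5.4 at 135, the cuticle collagen gene rol-6 at 124, B0261.8 at 117 and ZK512.8 at 63.6. T05G5.4, at 333 RPM in yt2, was also at 75.2 in pics-1 TDP2 and 41.4 in erh-2 TDP2. B0261.8, at 767 RPM in yt2, was also at 284 in pics-1 TDP2 and 62.4 in erh-2 TDP2. For rol-6 the yt2 library held 1002 antisense reads, against at most 4 elsewhere, and 157 sense reads against at most 7, whereas unc-87 stood apart on the antisense strand alone. Why these genes stand apart in yt2 from the other tofu-6 alleles was not tested.

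Other genes of the sarcomere were divided in the same TDP2 comparison. Of 34 genes listed here as further sarcomere genes, 33 were tested on the sense strand. The list also holds lev-8 and mlc-4, which are not established genes of the sarcomere. Of all protein-coding sense features 14.4% fell and 10.2% rose, with a median of −0.32. Of the 33 listed genes, 14 fell and 4 rose, with a median of −0.72. Those that fell, named here after their values were seen, included the giant filament proteins ttn-1 (−1.65), unc-22 (−1.61) and unc-89 (−1.39), the troponins tni-4 (−1.63) and tnt-2 (−1.41), and the alpha-actinin atn-1 (−1.26). Those that rose were the troponin C gene pat-10 (2.79), the tropomyosin gene lev-11 (1.88), the calponin-like gene clik-1 (1.54) and the myosin light chain gene mlc-1 (1.05). The near-identical actins act-1 (−1.01, adjusted p = 0.0153), act-2 (−0.82, 0.0330) and act-3 (−0.85, 0.0324) fell, while act-4 did not pass, and shared reads make single actins uncertain. All of these values are relative to the TMM scaling, and scalings that shift the 7 members would shift these by a like amount. On the antisense strand 10 of 12 tested rose, mlc-4 among them, and 0 fell. The largest estimates were those of the myosin chaperone gene unc-45 (4.54), the tropomodulin gene unc-94 (4.19), lev-11 (3.86), the LIM protein gene mlp-1 (3.76), act-1 (3.45) and the cofilin gene unc-60 (3.24).

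Genes outside the contractile filaments were tested in the same comparison, where 14.4% of all protein-coding sense features fell and 10.2% rose (median −0.32). Of 20 attachment genes tested on the sense strand, which anchor the filaments to the membrane and matrix, 9 fell and 1 rose (median −0.73), and of 16 excitation genes 4 fell and 1 rose (−0.44), and of 4 regulators of muscle genes 1 fell and 0 rose (−0.04). Among the other tissues 9 of 21 germline genes fell and 2 rose (−0.67), 7 of 19 intestine genes fell and 2 rose (−0.79), and 0 of 18 epidermal genes fell and 3 rose (−0.05). Of 14 neuron genes 1 fell and 2 rose (−0.57), and of 16 sperm genes 0 fell and 1 rose (−0.05). In the comparisons of mutants with control, 0 sense features of the muscle lists were called. In prg-1 12.1% of all protein-coding antisense features fell. Of the muscle lists, 6 antisense features fell there: 1 of 16 tested in the sarcomere list, 2 of 10 for attachment, 2 of 7 for excitation and 1 of 3 for regulators. These were lev-11 (−5.53, adjusted p = 0.0230), the dystrophin gene dys-1 (−5.44, 0.00901), the talin gene tln-1 (−5.39, 0.0144), lev-10 (−12.63, 0.000116), the GABA receptor gene unc-49 (−13.54, 8.02e-05) and the FoxA factor gene pha-4 (−7.47, 0.0486), and estimates for features with few or no reads depend on the prior count of the fit.

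Across the 14 libraries, untreated and TDP2 together, the 7 sense levels were correlated to unequal degrees. The log2 levels (1 RPM added) of myo-1, myo-2 and myo-3 had Pearson correlations of 0.915 to 0.925 with each other, unc-54 and unc-15 one of 0.873, and unc-15 and unc-87 one of 0.853, and myo-2 and act-4 one of −0.004. Within a treatment, where the shift between untreated and TDP2 libraries does not enter, all pairs had positive correlations: myo-2 and act-4 had one of 0.516 over the 6 untreated and 0.543 over the 8 TDP2 libraries. The lowest was that of unc-54 and myo-1 in TDP2 libraries, at 0.180, and the highest that of unc-15 and unc-87 in untreated ones, at 0.994. These are descriptions over libraries that share treatment and control, with no test. Of 15870 protein-coding features compared, the sense reads most like those of unc-54 were at col-19 (0.917), those most like myo-1 at nmy-1 (0.940), those most like myo-2 and myo-3 at epi-1 (0.946) and let-805 (0.951), and those most like unc-15 at let-2 (0.894). For act-4 the nearest was mlc-3 (0.920) and for unc-87 col-42 (0.922).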

How the data were processed

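The values used are counts of reads for each transcript, whole numbers with sense and antisense apart, in 1 table per library, as deposited by the authors. Bowtie2 aligned the reads, per the submitters' processing notes. How reads with more than 1 match were treated is not given in the sources used here, nor are the Bowtie2 version, the counting tool or the genome build. The authors' class tables were not used here. Coding transcripts were summed per gene by gene identifier, and symbols, exon lengths and coordinates came from WBcel235, in which 20231 of 20535 coding gene identifiers have a symbol. The files give the members by identifier only.

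Counts were fitted with edgeR 4.0.16 (glmQLFit and glmQLFTest, TMM) in R 4.3.3, on features that had 30 reads in all and 10 in at least 1 library. The TDP2 libraries gave 22549 features and 3 residual degrees of freedom, with a median biological coefficient of variation of 0.561. TDP2 against untreated gave 21837 features and 4 residual degrees of freedom, with strain as a block taken from the labels. Tests were two-sided, with Benjamini-Hochberg adjustment over all features and a threshold of 0.05. Single libraries were compared as ratios with exact 95% counting intervals, which cover counting error only. Exact permutation tests and intervals used scipy 1.17.1. The fits were tested on simulated data. Alternatives were 4 scalings, DESeq2 1.42.0, other filters, 1 transcript per gene, no strain block and each replicate or strain pair left out. The members and lists were chosen with earlier results of these data known. The genes named were the members, act-1 to act-3, the 6 called sarcomere genes with the largest change in a comparison, and the most alike genes by correlation; others are said to be chosen after their values were seen. No sequences are shown.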

Additional observations from a re-analysis of the deposited data

Results flagged for a closer look

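The antisense level of unc-87 in the tofu-6(yt2) TDP2 library was 406 RPM, against 0.602 to 0.910 RPM in the other 3 tofu-6 alleles. Its gap to the nearest of them was 0.999 of the whole range, above Dixon's 95% critical value of 0.829 for 4 samples. This was the 1 outlier in 18 groups of values checked, where chance alone puts about 1 in 20 groups past the limit.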

How the results depend on the processing

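The members called with TDP2 numbered 6 of 10 features and became 3 when libraries were scaled to microRNA reads, 2 when scaled to reads outside structural RNA, and 3 when the transcript with most reads stood for a gene, where 7 features were tested; DESeq2 called 8, with 7 of 7 sense and 1 of 3 antisense features. The 1 feature called in tofu-6, antisense unc-87, became 0 under DESeq2, with the size factors of DESeq2 in edgeR and when scaled to protein-coding sense reads, and ranged from 0 to 1 when single alleles were left out, at 0 without it20, ust94 or yt2. Calls in pics-1, erh-2 and prg-1 stayed at 0 under every alternative run. No paired analysis was possible because, between genotypes, the groups share fewer than 2 replicate numbers; the TDP2 comparison has strain as its block, and without it the estimate for antisense unc-87 was 0.52.

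Scaling to microRNA reads turned these log2 estimates positive: with TDP2 unc-54 1.61, myo-1 0.97, myo-2 0.57, myo-3 0.84, act-4 2.15, unc-15 1.504, unc-87 1.18, antisense unc-87 2.05, F11C3.3.1 1.06 and F11C3.3.2 0.91, and between genotypes myo-3 in tofu-6 1.39, unc-87 in pics-1 1.07, myo-2 and unc-87 in erh-2 1.597 and 2.92, and myo-2 in prg-1 1.98. Scaling to reads outside structural RNA turned unc-54 (0.16), act-4 (0.71), unc-15 (0.0669), antisense unc-87 (0.62), unc-87 in erh-2 (0.0167) and myo-2 in prg-1 (0.17). Further estimates near 0 changed sign: act-4 was at 0.0340 with DESeq2 size factors in edgeR, 0.18 scaled to protein-coding sense reads, 0.0569 by the transcript with most reads, and from −0.64 (without the prg-1 pair) to 0.18 (without the pics-1 pair). Antisense unc-87 was at 0.0050 with those size factors, 0.17 scaled to protein-coding sense reads and from −0.13 (without the tofu-6 pair) to 0.31 (without the erh-2 pair), and unc-54 at 0.20 by the transcript with most reads. Between genotypes, unc-87 in pics-1 was at 0.0200 (DESeq2) and 0.0886 (no filter), unc-87 in erh-2 at 0.0328 (DESeq2), 0.17 (transcript with most reads) and −0.0259 (without yt2) to 0.0020 (without ust94), and myo-2 in prg-1 at 0.29 (DESeq2), 0.23 (no filter), 0.21 (those size factors) and −0.0391 (without it20) to 0.28 (without yt2).

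The summed untreated ratio of erh-2 was 0.418 scaled to microRNA reads, 0.889 outside structural RNA, 0.620 to protein-coding sense reads and 0.821 by the transcript with most reads. That of pics-1 was 0.571 by microRNA, 0.860 by protein-coding sense and 1.32 by that transcript, and that of prg-1 was 0.776 by microRNA and 1.38 by protein-coding sense. For tofu-6(ust94) it was 0.488, 1.51, 0.962 and 1.56 in the order given for erh-2, and for tost-1 it was 0.468 by protein-coding sense and 0.579 by the transcript with most reads. The summed TDP2 ratios of the tofu-6 alleles scaled to microRNA reads were 6.54 in it20, 3.51 in ust94, 1.86 in ust95 and 2.18 in yt2, and scaled to protein-coding sense reads 0.921, 0.552 and 0.748 in the first 3. For erh-2, pics-1 and prg-1 these scalings, added after seeing the data, gave 6.32, 1.40 and 5.37 by microRNA and 0.453, 0.564 and 1.22 by protein-coding sense. The cause of these moves was not tested beyond the scaling itself, which shifted the 7 genes together. Depth limits the antisense results: 3 of 7 members had too few antisense reads for a test between genotypes, and 4 of 7 for the TDP2 comparison.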
